A study of Mus musculus with 8 samples.

Results

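The genes described here are 10 natural killer (NK) cell and cytotoxic lymphocyte genes, measured in the dental epithelium of the mouse incisor. They are the receptors Klra7, Klra3, Klrd1, Klrk1 and Ncr1, the killing proteins Prf1, Gzma and Gzmb, the cytokine Ifng, and the granule protein gene Nkg7. All noncontrol probes whose transcript mapped to these genes were taken, which gave 14 probes of 41174, and 10 genes of the 33512 on the array when each probe without a symbol is counted as a gene. The genes were chosen by their signals in earlier results of the same arrays, where several of them, Klra7 among them, were lower in Bmi1-/- than in WT samples. Their genotype differences are therefore given as a description with no test.

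Total RNA of incisor dental epithelia was hybridised to single-colour Agilent arrays, 1 array per sample, in 4 Bmi1-/- samples and 4 wild-type (WT) samples. Bmi1-/- samples were homozygous null for Bmi1, which encodes a subunit of Polycomb repressive complex 1, and WT samples carried no named allele. All 8 samples were of mixed genetic background and untreated as far as the labels say, and the epithelium of each had been pulled away from the mesenchyme after enzymatic digestion of the incisors. Age and sex are not in the labels, nor is it stated that each sample came from its own animal, so errors and p-values cover the spread between samples, which may be technical.

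NK cells are lymphocytes that kill stressed, infected or transformed cells without prior priming, and they share much of their killing machinery with cytotoxic T cells. Their activity is set by receptors that inhibit or activate, many of them C-type lectin-like proteins encoded side by side in the NK gene complex, where the Klra genes encode the Ly49 receptors for MHC class I molecules. On contact with a target, perforin makes pores through which granzymes enter, and interferon gamma is released to act on neighbouring cells.

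The promoters of Klra7, Gzmb and Ifng, the genes above background on all 4 WT arrays and on no Bmi1-/- array, are shown here. That of Klra3, a paralog of Klra7, is added, because transcripts of such similar genes may bind the same probe. The sequences are from RefSeq on build GRCm38.p6 and run from 250 bases before to 50 bases after the transcript start, 5′ to 3′ on the gene's strand. CG dinucleotides are in capitals. Klra7 has 2 annotated starts, at chr6:130231638-130231937 and chr6:130233273-130233572 (both minus strand), and Klra3 lies at chr6:130337577-130337876 (minus strand). Gzmb lies at chr14:56262285-56262584 (minus strand) and Ifng at chr10:118440796-118441095 (plus strand).
Klra7, first start: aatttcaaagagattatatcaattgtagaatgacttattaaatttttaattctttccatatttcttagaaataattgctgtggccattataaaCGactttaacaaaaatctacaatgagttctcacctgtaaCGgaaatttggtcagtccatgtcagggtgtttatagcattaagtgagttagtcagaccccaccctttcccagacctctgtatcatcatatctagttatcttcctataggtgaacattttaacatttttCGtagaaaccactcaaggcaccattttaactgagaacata
Klra7, second start: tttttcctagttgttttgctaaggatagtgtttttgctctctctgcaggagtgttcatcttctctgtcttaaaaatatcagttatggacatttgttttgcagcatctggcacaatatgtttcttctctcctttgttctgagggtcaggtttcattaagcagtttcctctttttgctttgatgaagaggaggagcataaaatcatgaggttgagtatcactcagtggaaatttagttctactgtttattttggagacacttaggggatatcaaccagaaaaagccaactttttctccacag
Klra3: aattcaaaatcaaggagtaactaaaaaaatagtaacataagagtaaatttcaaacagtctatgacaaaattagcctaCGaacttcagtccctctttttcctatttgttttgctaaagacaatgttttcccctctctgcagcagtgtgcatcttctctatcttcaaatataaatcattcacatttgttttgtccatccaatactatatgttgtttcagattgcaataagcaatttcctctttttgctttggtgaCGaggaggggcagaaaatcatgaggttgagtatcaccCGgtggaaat
Gzmb: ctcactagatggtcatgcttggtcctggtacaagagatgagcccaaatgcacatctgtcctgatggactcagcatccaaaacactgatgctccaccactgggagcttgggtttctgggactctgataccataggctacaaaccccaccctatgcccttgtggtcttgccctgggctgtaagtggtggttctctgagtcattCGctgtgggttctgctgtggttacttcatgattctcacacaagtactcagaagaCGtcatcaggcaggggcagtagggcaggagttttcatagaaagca
Ifng: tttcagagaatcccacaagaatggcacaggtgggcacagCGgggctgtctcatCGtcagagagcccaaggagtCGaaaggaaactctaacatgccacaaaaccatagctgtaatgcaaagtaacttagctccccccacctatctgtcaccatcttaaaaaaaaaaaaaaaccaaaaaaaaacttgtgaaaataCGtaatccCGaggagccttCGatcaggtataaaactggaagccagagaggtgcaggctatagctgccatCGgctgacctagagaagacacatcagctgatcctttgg

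The promoter at the second Klra7 start and the Klra3 promoter had 175 identical bases of 207 aligned, an identity of 84.5%. The promoter at the first Klra7 start aligned with that of Klra3 over only 3 bases. Likeness of promoters does not show whether transcripts bind the same probe, and probe sequences were not examined. The table held promoters of 9 of the 10 genes, with Klrd1 unmatched, and 11 promoters in all. They had 0 to 7 CG dinucleotides each with a median of 3, beside a median of 7 and quartiles of 3 and 20 over the 32851 promoters of the table. The Klra7 promoters had 3 and 0, the Gzmb promoter 2 and the Ifng promoter 7. The letters TATAAA, searched on both strands, were in 3 of the 11 promoters (the first of Klra7, Klra3 and Ifng) and in 13.6% of all promoters. The letters GGTGTGA, the core bound by T-box factors, were in 1 of the 11, that of Nkg7, and in 3.98% of all, also on both strands. On chromosome 6, Klrd1 and Klrk1 are neighbours with 0 annotated genes between them, 3 genes separate Klra7 from Klra3, and 20 Klr genes stand in the stretch from Klrd1 to Klra3. Ncr1 and Nkg7 lie on chromosome 7, Prf1 and Ifng on chromosome 10, Gzma on chromosome 13 and Gzmb on chromosome 14.

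The arrays differed in brightness and background. The 75th percentile signal ranged from 440.3 to 795 in Bmi1-/- arrays and from 617 to 1900 in WT arrays. Probes well above background, an indicator that the scanner software sets for each spot, made up 66.4% ± 1.64 of probes in Bmi1-/- arrays and 71.4% ± 2.10 in WT arrays (SD, n = 4 each). An exact two-sided permutation test gave p = 0.0286 for this share, the smallest that 4 against 4 arrays allow. The arrays lay on 2 slides, each with 2 arrays of each genotype. Bmi1 itself was at -2.92, -1.22, -1.23 and -1.04 in Bmi1-/- arrays and at 1.16, 1.27, 1.20 and 1.25 in WT arrays on its tested probe, on the log2 scale relative to the array's 75th percentile that is used throughout. It fell by 2.82 ± 0.37 (SE, limma, adjusted p = 0.0305), although the labels and files do not place the probe relative to the deleted part, and 11 of 19 alternative settings did not call it. All 13 dental epithelium markers on the array, Amelx and Krt14 among them, were well above background on all 8 arrays, and so were all 12 mesenchyme and all 12 endothelial markers.

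The NK and cytotoxic genes fell into groups by detection. Each Bmi1-/- array had 3 of the 10 genes well above background, and each WT array had 7. Klrd1, Gzma and Nkg7 were well above background on all 8 arrays. Klra7, Gzmb and Ifng were so on no Bmi1-/- array and on all 4 WT arrays, a pattern that 0.477% of all genes on the array had. Klra3, Ncr1 and Prf1 were above background on 1 or 2 WT arrays only, and Klrk1 on none. In all, 0 of the 10 genes were detected on Bmi1-/- arrays only and 6 on WT arrays only, beside 1.8% and 6.23% of all genes. Since the genes were chosen with this contrast known, nothing is read from these shares. In bulk tissue, fewer cells of a type and less RNA per cell cannot be told apart.

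**Figure D1:**
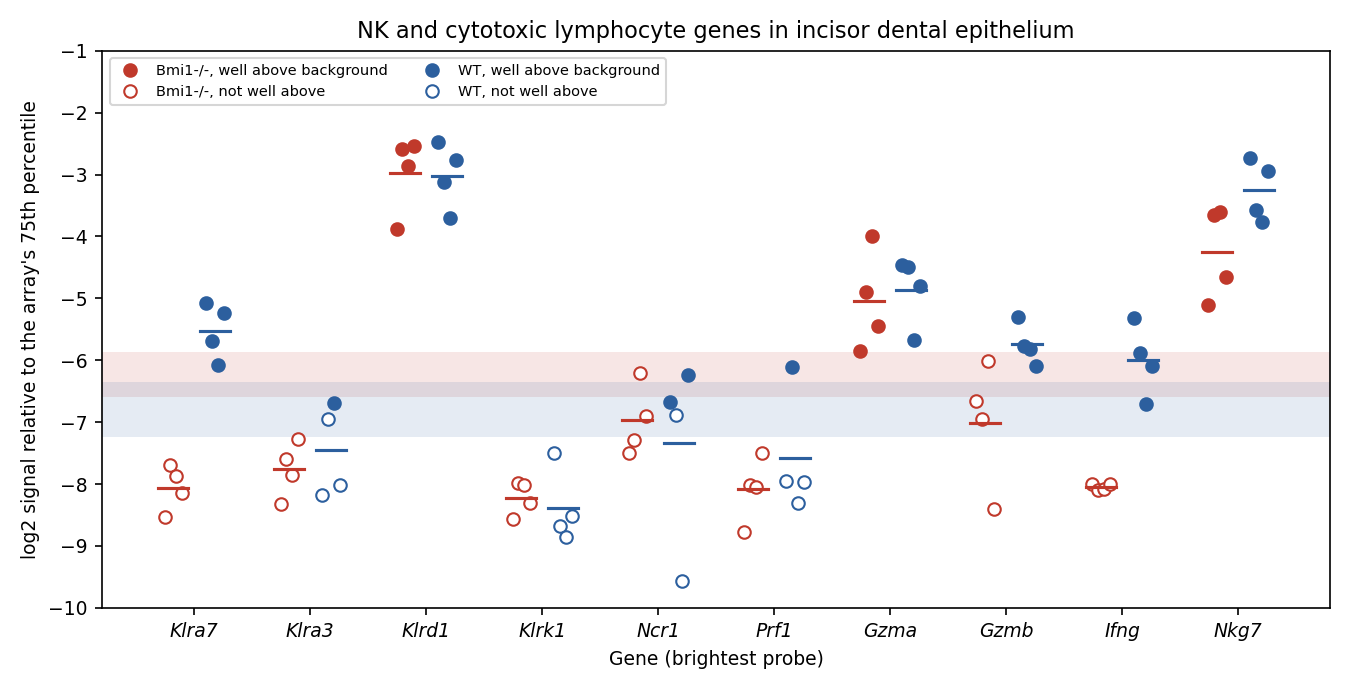
Log2 processed signal of each gene's brightest probe, relative to the array's 75th percentile, on the 4 Bmi1-/- arrays (red, left) and the 4 WT arrays (blue, right), with bars at the means and open points for spots not well above background. The pale bands span the lowest well-above-background signal of the arrays of each genotype, from -6.59 to -5.87 in Bmi1-/- and from -7.25 to -6.35 in WT, and Klra7 and Ifng are the genes whose groups do not overlap.

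Klra7 encodes Ly49G, an inhibitory receptor for MHC class I that is carried by a subset of NK cells. Its probe, A_52_P248513, was at -8.53, -7.70, -7.87 and -8.15 in Bmi1-/- arrays, against -5.08, -5.69, -6.08 and -5.23 in WT arrays. The 4 Bmi1-/- values all lay below the 4 WT values and were not well above background. The means were -8.06 ± 0.36 in Bmi1-/- and -5.52 ± 0.46 in WT (SD, n = 4 each), a difference of -2.54. Within slides the difference was -2.96 on slide 1 and -2.12 on slide 2. As the Bmi1-/- signals were not above background, a fold was taken against a limit. The limit was the mean over Bmi1-/- arrays of the higher of the probe's own signal and the array's lowest well-above-background signal. By that reckoning Klra7 was 1.52-fold lower in Bmi1-/- samples. This is not a strict minimum, since the indicator is set for each spot and an undetected spot can lie above that lowest signal. Normexp background correction, described further on, turned the sign of the difference to 0.38. Klra transcripts are similar enough that the probe may also bind those of other Klra genes.

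Klra3 encodes Ly49C, another inhibitory Ly49 receptor. Its brightest probe, A_52_P34058, was at -8.33, -7.60, -7.85 and -7.27 in Bmi1-/- arrays and at -8.17, -6.95, -6.70 and -8.01 in WT arrays. The groups overlapped, and the only array on which the probe was well above background was WT replicate 3. The difference was -0.30 on that probe, whereas the other 2 Klra3 probes, above background on no array, differed by 0.70 and 0.51. Among all 8011 genes above background on no array the median difference was 0.73.

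Klrd1 encodes CD94, the partner with which NKG2 chains form receptors for nonclassical MHC class I. It was detected on every array, at -3.88, -2.59, -2.86 and -2.54 in Bmi1-/- arrays and at -2.48, -3.13, -3.71 and -2.77 in WT arrays. The ranges overlapped almost fully, and 1 low array stood in each genotype. The means were -2.97 ± 0.62 in Bmi1-/- and -3.02 ± 0.53 in WT (SD, n = 4 each), and their difference of 0.05 was far smaller than either SD. It was -0.61 on slide 1 and 0.72 on slide 2.

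Klrk1 encodes NKG2D, an activating receptor for stress-induced ligands. Its probe stayed near the bottom of the scale on every array, from -8.57 to -7.98 in Bmi1-/- arrays and from -8.86 to -7.49 in WT arrays. Ncr1 encodes NKp46, an activating receptor that marks NK cells and some other innate lymphoid cells. It was at -7.49, -7.29, -6.20 and -6.91 in Bmi1-/- arrays and at -6.67, -6.88, -9.56 and -6.24 in WT arrays. Only WT replicates 1 and 4 were well above background, and WT replicate 3 held the lowest value. The difference was 0.37 over all arrays and -0.37 without WT replicate 3.

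Of the killing proteins, Prf1 encodes perforin, the pore-forming protein of cytotoxic granules. Its probe was at -8.77, -8.01, -8.05 and -7.50 in Bmi1-/- arrays and at -7.96, -6.10, -8.31 and -7.97 in WT arrays. WT replicate 2 was the only array on which it was well above background, and the other 3 WT values lay within the Bmi1-/- range. The difference of -0.50 became -0.00 without that array.

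Gzma encodes granzyme A, a granule serine protease that cuts after basic residues. It was above background on every array, at -5.86, -4.90, -3.99 and -5.44 in Bmi1-/- arrays and at -4.45, -4.49, -5.68 and -4.81 in WT arrays. The highest of the 8 values and the lowest were both Bmi1-/-. The means of -5.05 ± 0.81 in Bmi1-/- and -4.86 ± 0.57 in WT (SD, n = 4 each) differed by -0.19, with -0.75 on slide 1 and 0.37 on slide 2.

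Gzmb encodes granzyme B, the granule protease that cleaves after aspartate and triggers caspases in the target cell. It was at -6.66, -6.95, -6.02 and -8.41 in Bmi1-/- arrays and at -5.31, -5.76, -5.81 and -6.09 in WT arrays. All WT arrays and no Bmi1-/- array were well above background, yet Bmi1-/- replicate 3 lay just above WT replicate 4, so the groups overlapped. The means were -7.01 ± 1.01 in Bmi1-/- and -5.74 ± 0.33 in WT (SD, n = 4 each). The difference was -1.27 (-1.11 on slide 1 and -1.43 on slide 2). Against the detection limit the level was 1.30-fold lower in Bmi1-/- samples, not a strict minimum either, but normexp gave 0.50. Bmi1-/- replicate 4 weighed most, and without it the difference was -0.80.

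Ifng encodes interferon gamma, the cytokine through which NK and T cells activate macrophages and antigen presentation. Its brighter probe, A_52_P68893, was at -8.00, -8.09, -8.08 and -8.00 in Bmi1-/- arrays, against -5.32, -5.88, -6.70 and -6.09 in WT arrays. The Bmi1-/- values were nearly equal, none well above background, and all under the lowest WT value. As none was detected, their closeness is not read as an even Ifng level. The means were -8.04 ± 0.05 in Bmi1-/- and -6.00 ± 0.57 in WT (SD, n = 4 each), with a difference of -2.04 (-2.34 on slide 1 and -1.75 on slide 2). Against the detection limit of the Bmi1-/- arrays this was a 1.09-fold lower level, again not a strict minimum, but normexp gave 0.50. The other probe, A_51_P220976, was at -7.18, -8.17, -8.08 and -8.41 in Bmi1-/- arrays and at -6.80, -6.37, -7.10 and -6.64 in WT arrays. It was well above background on WT replicates 1, 3 and 4 only, and its groups were also apart, by -1.23. Klra7 and Ifng were thus 2 of the 10 genes with groups that did not overlap and lower values in Bmi1-/-, beside 1.04% of all genes on the array.

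Nkg7 encodes a membrane protein of cytotoxic granules found in NK cells and cytotoxic T cells. It was the only gene detected on all arrays whose mean difference reached 1 log2 unit. Its brighter probe, A_52_P24447, was at -5.11, -3.65, -3.60 and -4.65 in Bmi1-/- arrays and at -2.73, -3.57, -3.77 and -2.94 in WT arrays. Bmi1-/- replicates 1 and 4 were the lowest, whereas Bmi1-/- replicates 2 and 3 lay among the lower WT arrays. The means were -4.25 ± 0.75 in Bmi1-/- and -3.25 ± 0.50 in WT (SD, n = 4 each), a difference of -1.004 or a level 2.005-fold lower in Bmi1-/- samples. The difference was -1.55 on slide 1 and -0.46 on slide 2. The dimmer probe, A_51_P499195, was at -6.08, -5.80, -5.44 and -8.13 in Bmi1-/- arrays and at -4.38, -5.52, -5.97 and -4.66 in WT arrays, a difference of -1.23 with overlapping groups.

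Over the 10 genes the median difference was -0.40, with 7 negative and 3 positive, from -2.54 for Klra7 to 0.37 for Ncr1, and with normexp it was 0.50, with 1 negative. The median over all genes on the array was 0.13. For dim probes the genotype difference depended on the treatment of background. Normexp correction with an offset of 50 gave 0.38 for Klra7, 0.50 for Gzmb and 0.50 for Ifng, turning the direction of all 3, beside a median of 0.47 over all genes. The processed signals of these 3 probes were 1.63 to 35.4, below that offset, although normexp itself started from the median signals of spot and background. Klra3 and Prf1, each well above background on 1 array only, were at 0.70 and 0.71 with normexp. The part of the offset and of array brightness in these values was not tested, and no direction is read from their sign after normexp. Nkg7 was at -0.17 with normexp, still below the median of all genes. Raising every value to a common floor of -5.87 left -0.40 for Klra7, -0.18 for Gzmb, -0.14 for Ifng and -1.004 for Nkg7. The authors' own deposited log2 values gave -0.58 for Klra7, -0.26 for Gzmb, -0.43 for Ifng and -0.61 for Nkg7.

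**Figure D2:**
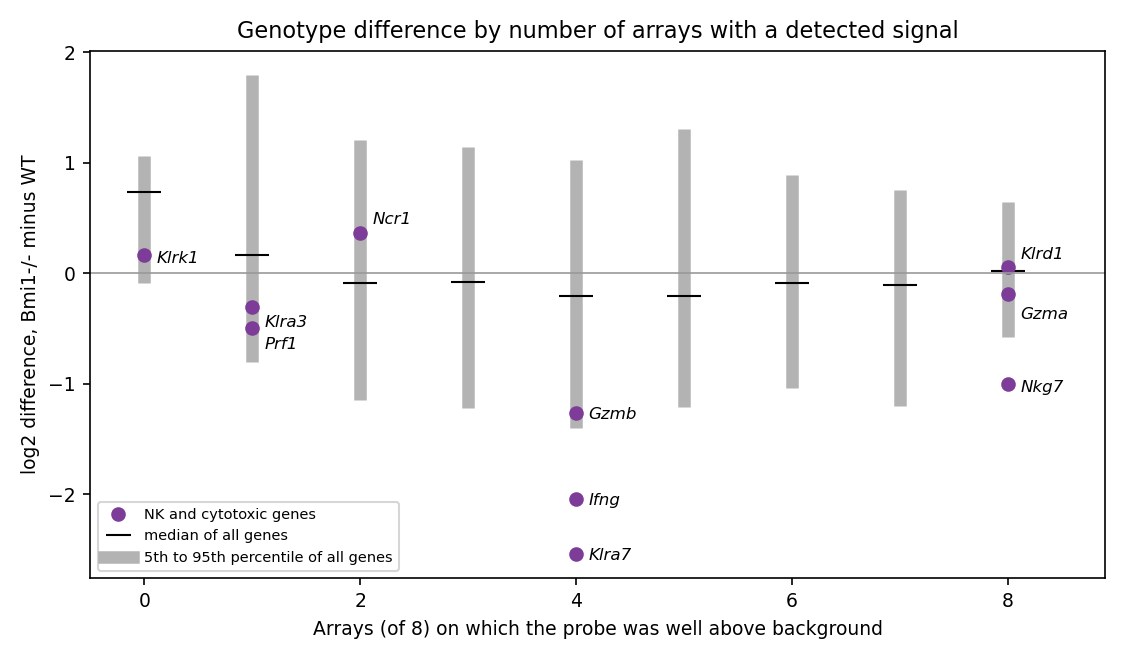
Log2 difference, Bmi1-/- minus WT, of the 10 genes (purple) by the number of arrays on which the brightest probe was well above background, with the median (black) and the 5th to 95th percentile (grey) of all genes with the same number. Klra7, Ifng and Gzmb stand at 4 arrays, all WT, at -2.54, -2.04 and -1.27 with Bmi1-/- signals not above background, and Nkg7 stands at 8 arrays at -1.004; as the genes were chosen with this difference known, nothing is read from their place among all genes.

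Array brightness was set beside detection. The Klra7 signal before scaling was 1.95, 2.19, 1.89 and 2.80 in Bmi1-/- arrays and 35.4, 11.97, 28.0 and 26.4 in WT arrays. The Ifng signal was 2.82, 1.67, 1.63 and 3.11 in Bmi1-/- arrays and 29.9, 10.48, 18.3 and 14.6 in WT arrays. The 75th percentile of the array was 723, 454, 440.3 and 795 in Bmi1-/- arrays and 1196, 617, 1900 and 994 in WT arrays, so 3 of the 4 WT arrays were brighter than every Bmi1-/- array. The lowest signal that counted as well above background was 7.48 to 11.3 in Bmi1-/- arrays and 7.54 to 12.5 in WT arrays. The part of brightness in the detection of these genes was not tested.

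**Figure D3:**
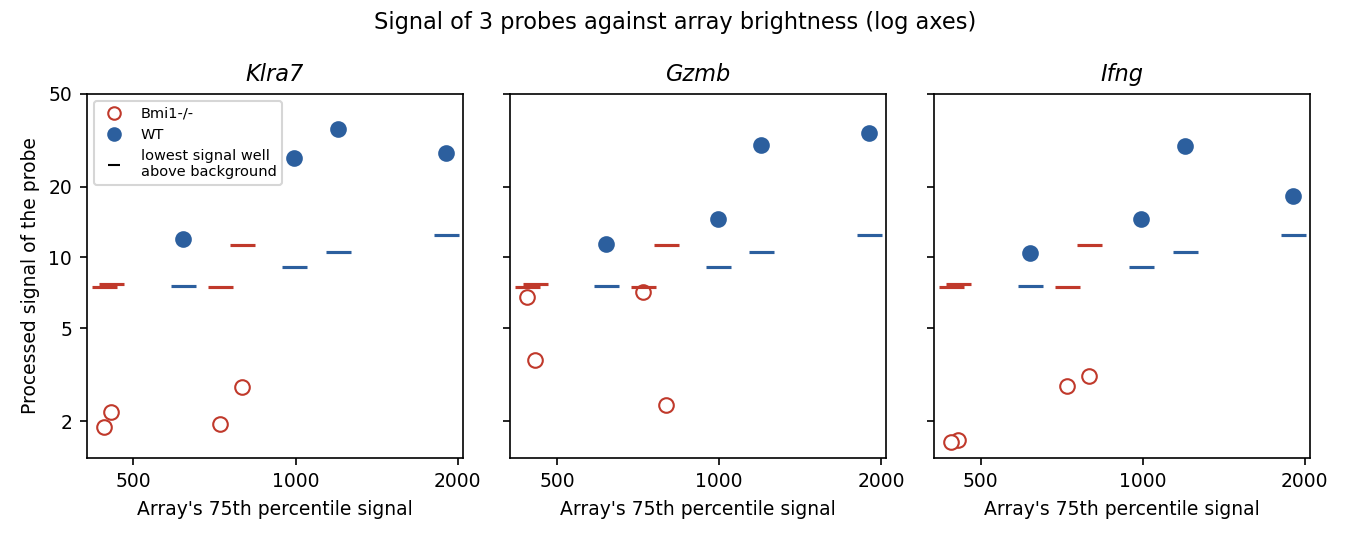
Processed signal of the Klra7, Gzmb and Ifng probes against the 75th percentile signal of the array, both on log axes, for Bmi1-/- arrays (red, open because not well above background) and WT arrays (blue), with dashes at each array's lowest well-above-background signal. The Klra7 signals of 1.89 to 2.80 in Bmi1-/- arrays lie under the dashes, and those of 11.97 to 35.4 in WT arrays lie above them, while the WT arrays reach further to the bright side.

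The slide was not used in choosing the genes, so it could be tested on the 3 genes detected on all 8 arrays. By limma with genotype in the model, 0 of the 3 differed between slide 2 and slide 1 at 5% FDR. Of all genes tested 1.28% did so, all of them higher on slide 2, and with so few genes 0 is near that share. At an unadjusted p under 0.05 it was also 0 of the 3. Nkg7 was at -3.90 on slide 2 and -3.61 on slide 1 (limma adjusted p = 0.763), Klrd1 differed by -0.13 (0.893) and Gzma by 0.10 (0.934). Klra7, Gzmb and Ifng entered the fit through WT arrays only, so that their Bmi1-/- values there are background, and their slide differences are not read.

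The 3 genes detected on all arrays were also compared within genotypes, after each genotype's mean had been subtracted. Over the 8 arrays Pearson's r was 0.81 between Gzma and Nkg7, 0.75 between Klrd1 and Nkg7 and 0.61 between Klrd1 and Gzma. The mean of their centred values was -0.86, 0.38, 0.61 and -0.12 in Bmi1-/- replicates 1 to 4 and 0.49, -0.02, -0.68 and 0.21 in WT replicates 1 to 4. The brighter Bmi1-/- arrays, replicates 1 and 4, were the low ones of their group, and so was the brightest WT array, replicate 3, whereas WT replicate 1, the next brightest, was the highest WT array. The part of brightness in this shared variation was not tested.

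The genes most like the NK and cytotoxic genes in this centred pattern were taken from 12821 genes with a symbol detected on all 8 arrays, by their r over the 8 arrays with the mean of the 6 genes above background on at least 4 arrays. They were Ccl12, a chemokine that attracts monocytes, with r = 0.995, then Ankfy1 with 0.969, Atp5o with 0.966, Phf11d with 0.960, Trpm5 with 0.957 and Cmtm7 with 0.954. That mean holds background values, since Klra7, Gzmb and Ifng were not detected in Bmi1-/- arrays. Against the mean of Klrd1, Gzma and Nkg7 alone, a comparison added after seeing the data, r was 0.938 for Ccl12, 0.950 for Trpm5 and 0.946 for Phf11d, and 64 genes had an r above 0.9, so that the order of the genes depended on which members were averaged. Ccl12 was at -1.49, -0.66, -0.20 and -1.39 in Bmi1-/- arrays and at -0.50, -1.07, -1.82 and -0.98 in WT arrays, so its groups overlapped.

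Other genes of NK biology were taken from lists. At 5% FDR, 0.0492% of all genes tested were called between genotypes by limma (9 higher and 2 lower in Bmi1-/-, beside 940, or 4.21%, higher and 482, or 2.16%, lower at an unadjusted p under 0.05). Of 17 further Klr genes on the array, 9 were above background on no array, 0 on Bmi1-/- arrays only and 3 on WT arrays only, beside 1.8% and 6.23% of all genes. Bmi1-/- arrays detected 2 to 3 of the 17 and WT arrays 5 to 6. Among the 4 that could be tested, 0 passed, with 1 lower at an unadjusted p under 0.05. The median difference of these 4 was -0.79, or -0.30 without Bmi1-/- replicate 1, whereas over all 17 it was -0.10. Of the 4, Klrb1c and Klra8 were well above background on 4 and 3 WT arrays and on 1 Bmi1-/- array each. They entered mainly through WT arrays, so the median of the 4 is not read as a level of the family. Klrb1c, which encodes the NK1.1 antigen, was at -8.36, -6.39, -6.46 and -6.00 in Bmi1-/- arrays and at -5.11, -5.91, -5.98 and -5.33 in WT arrays. Its groups did not overlap, narrowly, but the difference of -1.22 ± 0.51 (SE) had an adjusted p of 0.770 (limma) and was -0.70 without Bmi1-/- replicate 1. Only replicate 4 of the Bmi1-/- arrays was well above background for Klrb1c. Its SE and p thus rest mostly on background values in Bmi1-/- arrays and are not read. The paralogs Klra8 and Klra2 differed by -0.90 and -0.67, and Klrg2, which lies outside the NK gene complex, by 0.72, each short of the threshold.

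Receptors and adaptors outside the Klr family were balanced, with 9 positive and 9 negative differences among 18 tested genes, a median of 0.00, and 0 called by limma (0 higher and 1 lower at an unadjusted p under 0.05). The smallest p was that of Slamf6, a homophilic receptor of T and NK cells. It was at -6.36, -6.72, -5.76 and -6.04 in Bmi1-/- arrays and at -4.66, -5.51, -3.77 and -4.35 in WT arrays. The groups were apart, by -1.65 ± 0.41 (SE), with an adjusted p of 0.640 (limma). Fcgr3, the Fc receptor of antibody-dependent killing, differed by -0.65, Itgae, the integrin chain of lymphocytes that lodge in epithelia, by 0.93, and Cd244a by 0.54.

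Among 21 other granule and killing genes on the array, 12 were tested, with 7 positive and 5 negative differences and a median of 0.02. By limma 0 were called, with 2 higher and 0 lower at an unadjusted p under 0.05. Those were Lamp1, a lysosomal membrane protein of most cells, at 0.42, and Gzmm, granzyme M, at 0.86. Gzmm was thus higher in mean in Bmi1-/- samples, unlike Gzmb. Ctsc, which activates granzymes, differed by -0.43 and Srgn, the proteoglycan core of granules, by -0.69. Another 5 genes of this list, Gzmc, Gzmd, Gzme, Fasl and Xcl1, were above background on no Bmi1-/- array and on 1 to 3 WT arrays, and were picked out after their values had been seen. On Bmi1-/- arrays only there were 0 of the 21, near the share of all genes, which was 1.8% on Bmi1-/- arrays only and 6.23% on WT arrays only.

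Transcription factors and cytokine receptors of NK cells gave a median of -0.23 over 19 tested genes, 7 positive and 12 negative, with 0 called by limma and 1 lower at an unadjusted p under 0.05. That gene was Il12rb1, a chain of the receptor for interleukin 12, at -0.73 (limma adjusted p = 0.770). Ets1 differed by -0.64, Zeb2 by -0.51 and Il15, the cytokine on which NK cells depend, by -0.67. Genes of interferon gamma signalling and its targets were all tested, 26 of 26, and were balanced with 11 positive and 15 negative differences and a median of -0.04. Of these, 0 were called by limma, with 1 lower at an unadjusted p under 0.05. That gene was Cxcl9, a chemokine induced by interferon gamma, at -6.41, -8.07, -3.82 and -7.52 in Bmi1-/- arrays and -1.005, -5.36, -4.29 and -4.31 in WT arrays. Bmi1-/- replicate 3 lay above 3 of the 4 WT arrays, and the difference of -2.71 ± 1.05 (SE) had an adjusted p of 0.770 (limma). Cxcl9 was well above background on all 4 WT arrays but only on replicate 3 of the Bmi1-/- arrays. Its SE and p thus rest mostly on background values in Bmi1-/- arrays and are not read. The related Cxcl10 differed by -1.21, or by -0.21 without WT replicate 1, and Irf8 and Psmb8, which serve myeloid identity and antigen processing, by -0.46 each.

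Ligands of NK receptors had 9 positive and 2 negative differences among 11 tested genes, a median of 0.25, and 0 called by limma (1 higher and 0 lower at an unadjusted p under 0.05). Raet1e, a ligand of NKG2D, differed by 0.83 ± 0.27 (SE, limma adjusted p = 0.761), with groups apart. Cadm1 differed by 0.38 and Nectin2 by 0.51, whereas Cd48, the ligand of Cd244a, differed by -0.55.

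Markers of other cells that use the same genes, or that may accompany them, were set beside these values. Of 20 T cell markers on the array, 11 were tested, with 3 positive and 8 negative differences and 0 called by limma (0 higher and 2 lower at an unadjusted p under 0.05). The signals of the 20, each divided by the array's 75th percentile and summed, ranged from 4.74 to 7.58 in Bmi1-/- arrays and from 4.30 to 6.98 in WT arrays. Thy1, picked out after its values had been seen, made up 52.6% to 80.5% of that sum and differed by 0.40. Without it the sum was 1.20 to 1.56 in Bmi1-/- arrays and 1.65 to 2.04 in WT arrays, so the groups no longer overlapped. Thy1 was 1 of the 3 markers that rose, so leaving it out favours a gap of this sign. The same removal left the B cell, leukocyte and macrophage sums overlapping, as given below. The chains of the T cell receptor complex did not move as 1 group. Cd3g differed by -1.73 and Cd3d by -1.16 (limma adjusted p = 0.770 each), and Cd3e by 0.32, while Cd6 differed by -0.52 and Cd5 by 0.33. Cd3e, the defining marker, was well above background on all 8 arrays, in both genotypes.

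Among B cell markers, Ms4a1, which encodes CD20, fell by 3.58 ± 0.38 in Bmi1-/- samples (SE, limma adjusted p = 0.00702). Against the detection limit it was 3.36-fold lower, which is not a strict minimum. Ms4a1 entered the fit through WT arrays only, so its SE and p rest on background values in Bmi1-/- arrays and are not read. The call was lost with normexp (-0.18), a common floor (-1.499) and the deposited log2 values (-1.19). It shared with Klra7, Gzmb and Ifng the pattern of detection on no Bmi1-/- and all WT arrays. The other 6 tested B cell markers did not pass, and the summed level of the 11 on the array was 0.770 to 1.21 in Bmi1-/- and 0.991 to 1.37 in WT arrays. General leukocyte genes had 2 positive and 12 negative differences among 14 tested, with a median of -0.48, and macrophage markers 0 positive and 14 negative, with a median of -0.57. In neither list was any gene called by limma (0 higher and 3 lower, and 0 higher and 4 lower, at an unadjusted p under 0.05). Ptprc, the pan-leukocyte CD45, differed by -0.84 and Csf1r by -0.79 (limma adjusted p = 0.770 each). The summed level was 7.76 to 10.2 in Bmi1-/- and 7.05 to 10.9 in WT arrays for leukocyte genes, and 21.0 to 30.0 in Bmi1-/- and 26.1 to 56.2 in WT arrays for macrophage markers. Cd52, picked out after its values had been seen, made up 23.9% to 51.8% of the leukocyte sum and differed by 0.62. Without it the sum was 4.62 to 5.36 in Bmi1-/- arrays and 5.23 to 7.41 in WT arrays.

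Mast cell markers had 1 positive and 6 negative differences among 7 tested, with a median of -0.71 (-0.41 without Bmi1-/- replicate 1), and 0 called by limma (0 higher and 3 lower at an unadjusted p under 0.05). Neutrophil markers had 0 positive and 8 negative, with a median of -0.57 that became 0.15 without Bmi1-/- replicate 1, and 0 called by limma (0 higher and 0 lower at an unadjusted p under 0.05). Endothelial markers had 2 positive and 10 negative, with a median of -0.28, and 0 called by limma (0 higher and 2 lower at an unadjusted p under 0.05). Dental epithelium markers went the other way, with 11 positive and 2 negative differences among 13 and a median of 0.79. Of these 0 were called by limma, but 10 were higher and 0 lower at an unadjusted p under 0.05, beside 4.21% and 2.16% of all genes. The part of any of these shifts in the values of the NK and cytotoxic genes was not tested.

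**Figure D4:**
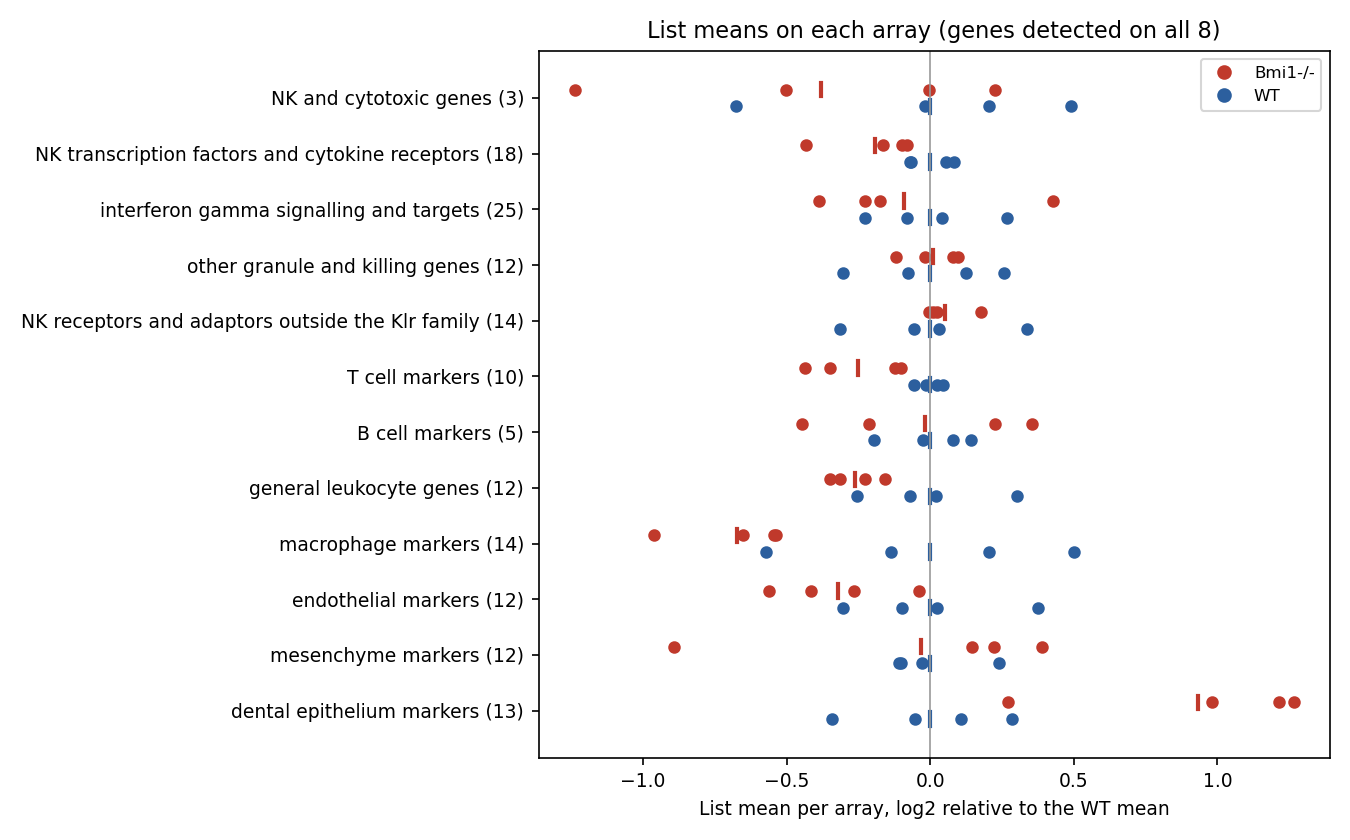
Mean log2 level of each gene list on each array, relative to the WT mean, over the genes well above background on all 8 arrays (their number in brackets), with Bmi1-/- arrays in red above WT arrays in blue and bars at the group means. The NK and cytotoxic genes, here Klrd1, Gzma and Nkg7 only, run from -1.24 to 0.23 in Bmi1-/- arrays and from -0.68 to 0.49 in WT arrays, and dental epithelium markers from 0.27 to 1.27 in Bmi1-/- and from -0.34 to 0.28 in WT arrays.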

How the data were processed

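Transcripts of 4 Bmi1-/- and 4 WT samples were measured with 1 single-colour array each, grouped by the genotype labels. Per the file headers, the authors used Feature Extraction (version 10.5.1.1) with the settings GE1-v5_95_Feb07, and the grid names build mm9. The deposited processed signal is a linear intensity, corrected for background and not normalised between arrays. The deposited indicators mark spots well above background. The deposited value table holds log2 values of the same arrays in the same direction (r of 0.958 to 0.982 with the log2 signal), with column medians of 6.76 to 6.77, and no source used here says how it was centred. It served as an alternative.

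Signals were taken to log2 and the array's 75th percentile over noncontrol probes was subtracted. Transcript names were matched to the RefSeq gene table of GRCm38.p6, which gave a symbol for 24836 of 41174 probes and none for 16338. A gene was represented by its brightest probe. Tests took probes with a signal well above background on 4 or more arrays of either genotype, which left 22351 genes. Genotypes were compared in R 4.3.3 with limma 3.58.1 (intensity trend, two-sided, Benjamini-Hochberg over all genes at 5% FDR). Of the 10 genes, 6 entered, 3 of them through WT arrays only. The pipeline was tested on simulated data. The number of arrays limits the precision, and errors may be technical, as the labels do not say that samples were separate mice.

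The genes, the lists and the tests were chosen with earlier results of these data known. Genes named are the 10, Bmi1, up to 4 genes of each NK list and of the T cell markers with the smallest p, defining markers of other cells, and the 6 genes most like the 10. Alternatives were normexp, quantile and median scaling, other filters, a common floor, the mean over probes, slide as a block, no trend, array weights, the deposited log2 values, and each array left out. The title and the file of WT replicate 1 carry different numbers. The file was used as linked, and which WT sample it holds is uncertain.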

Additional observations from a re-analysis of the deposited data

Results flagged for a closer look

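Of 62 groups of 4 arrays examined, 28 for probes of the 10 genes and 34 for list means, 2 had an array that stood apart from the other 3, and chance flags about 1 in 20 groups. The Prf1 probe was at -6.10 in WT replicate 2, far above the other WT arrays. The mean of NK receptors and adaptors outside the Klr family was 0.178 in Bmi1-/- replicate 3, relative to the WT mean on the log2 scale, above the other Bmi1-/- arrays.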

How the results depend on the processing

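At 5% FDR limma called 11 genes between genotypes. It called 5 with normexp (4 of them among the 11), 7 with a common floor (5 among the 11), 23 with array weights (all 11 among them), and 0 of 19661 with a filter asking for all 8 arrays, where 906 were higher and 359 lower at an unadjusted p under 0.05. Leaving out each array gave 9 to 14. The median of the 10 genes, -0.40, became 0.50 with normexp, beside 0.47 over all genes, and was -0.68 to -0.07 under the other scalings, floors, probe rules and value sources. It was -0.60 to -0.10 with each array left out, being -0.19 without Bmi1-/- replicate 1 and -0.10 without WT replicate 2. The slide contrast called 286 genes, and 166 to 302 with each array left out: 166 without WT replicate 1, 176 without Bmi1-/- replicate 3 and 183 without WT replicate 2. The cause of these moves was not tested, except that a stricter filter tests fewer genes.

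Klra7 kept its sign with each array left out (-2.73 to -2.38), as did Ifng (-2.28 to -1.82), Gzmb (-1.60 to -0.80) and Nkg7 (-1.22 to -0.72), whereas Klrd1, Gzma and Ncr1 changed sign. For Klra7 and Ifng, whose groups did not overlap, leaving out an array could not change the sign. The Bmi1-/- values of Klra7, Ifng and Gzmb were not above background, and the genes were chosen with this contrast known. The kept signs are therefore not read as support. The call of Bmi1 was lost in 11 of 19 alternatives (limma adjusted p from 0.000167 to 0.184). That of Ms4a1, which rests on background values in Bmi1-/- arrays, was lost with normexp (-0.18, limma adjusted p = 0.774), a common floor (-1.499, 0.344) and the deposited log2 values (-1.19, 0.104). With normexp the differences of Klrb1c (0.43), Klra8 (0.62), Klra2 (0.45), Slamf6 (0.059) and Il12rb1 (0.29) turned positive, beside a median of 0.47 over all genes, below which Klrb1c, Klra2, Slamf6 and Il12rb1 lay, and that of Klra2 ran from -1.16 to 0.10 with each array left out, positive without Bmi1-/- replicate 1, none of them called by limma. No paired analysis was possible because the labels give no replicate numbers that the genotypes share. Signals near background limit all genes not detected in Bmi1-/- arrays to an approximate bound.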

Other observations

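Klra6, Klrb1a and Klre1 were the 3 further Klr genes above background on WT arrays only, on 2, 2 and 1 of them, and were picked out after their values had been seen. Klra6 was at -6.51, -7.52, -6.56 and -6.98 in Bmi1-/- arrays and at -6.84, -5.78, -6.59 and -6.79 in WT arrays, so its groups overlapped although detection differed. Of the neutrophil markers 2 of 10 were above background on WT arrays only, and of the B cell markers 4 of 11, beside 6.23% of all genes. No gene of these 2 lists was above background on Bmi1-/- arrays only, beside 1.8% of all genes. WT arrays also had more of all probes well above background, 71.4% against 66.4%.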
